A study of Mus musculus with 10 samples.

Results

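The receptor chains for IL-23, IL-12 and IL-6 and their closest relatives were examined in IL-22+ CD4+ T cells of C57BL/6 mice aged 10 weeks. The 8 genes were chosen by symbol, and all 8 were found among the 23393 named genes of the deposited table: Il23r, Il12rb1, Il12rb2, Il6ra, Il6st, Il27ra, Lifr and Osmr. Naive splenic CD4+ T cells had been activated through CD3 and CD28 and steered towards Th22 cells by IL-6 (30 ng/mL) together with IL-23 and IL-1 beta (each 20 ng/mL), FICZ, which activates the aryl hydrocarbon receptor (400 nM), and antibodies against IL-4 and interferon gamma. RNA came from 5000 cells sorted for tdTomato, the reporter placed at Il22. The WT group (5 libraries) had the genotype Riok2+/+Vav1cre/+Il22tdtomato/+ and the Riok2hKO group (5 libraries) had Riok2f/+Vav1cre/+Il22tdtomato/+, so the controls also carried the Cre transgene and the reporter. Vav1-driven Cre acts throughout the blood lineage, so a floxed allele is deleted before T cells form and not at the time of culture. Riok2 encodes an atypical kinase needed to make small ribosomal subunits. The comparison asks how expression differs when 1 functional copy of Riok2 is left.

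These receptors share chains. The IL-23 receptor pairs IL-23R with IL-12R beta 1, and the IL-12 receptor pairs the same beta 1 chain with IL-12R beta 2. The IL-6 receptor pairs the ligand-binding IL-6R alpha chain with gp130, the product of Il6st, which is also the signalling partner of the IL-27, LIF and oncostatin M receptors. The chains carry no kinase of their own and signal through Janus kinases, with STAT3 prominent downstream of IL-6 and IL-23 and STAT4 downstream of IL-12. In mouse T cells IL-6 is known to induce Il23r through STAT3, and IL-23 then sustains IL-17- and IL-22-producing cells.

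Values are TPM, a share of transcripts corrected for length, so levels of different genes can be set side by side, but the sequencing depth is unknown and no counting error can be given. Riok2 itself measured 29.9, 29.1, 26.1, 27.3 and 29.1 TPM in WT replicates 1 to 5 and 14.5, 12.04, 13.4, 12.2 and 16.2 TPM in Riok2hKO, 48.3% of the WT mean, with no overlap between the groups. Genes above 0 TPM numbered 13948 to 14695 in WT libraries, with the highest number in WT replicate 1, and 14183 to 14623 in Riok2hKO. WT replicate 1 also had the highest Il23r of its group and a Serbp1 level far from the rest, so the chains that rose are given without it as well. The 8 CD4 T cell markers checked were all well above the filter (Cd2 and Cd28 rose, Cd3d, Cd3g and Lck fell), and their sum ranged from 2462 to 2483 TPM in WT and from 2413 to 2479 in Riok2hKO. All 8 myeloid markers had a mean under 1 TPM, with Sfpi1 listed at 0 in every library. Their sum ranged from 0.75 to 1.46 TPM in WT and from 0.56 to 0.93 in Riok2hKO. Of 7 stromal and endothelial markers, which would accompany cells rich in Lifr and Osmr, 6 had a mean under 1 TPM. Of these, Col1a2 and Kdr were listed at 0 in every library. Pecam1 measured 9.47 and 9.77 TPM and set most of that list's sum of 7.46 to 11.7 TPM in WT and 8.48 to 11.3 in Riok2hKO. Of 8 CD8 and NK cell markers 5 had a mean under 1 TPM, and their sum of 21.5 to 24.3 TPM in WT and 15.5 to 18.9 in Riok2hKO was mostly Cd8b1, which fell, while Cd8a was under 1 TPM. Of 6 B cell markers 4 had a mean under 1 TPM, with a sum of 4.04 to 6.19 TPM in WT and 4.89 to 6.3 in Riok2hKO. Ebf1, one of them, rose from 2.53 to 3.69 TPM (limma adjusted p = 0.0114), and Cd79b, at 2.24 and 1.37 TPM, did not pass (adjusted p = 0.0591). Of 6 gamma delta T cell markers 3 were found in the table, all under 1 TPM (sum 0 to 0.14 TPM in WT and 0.03 to 0.21 in Riok2hKO). Blk, one of them, was listed at 0 in 9 libraries. Among 4 regulatory T cell markers Foxp3 had a mean under 1 TPM, and their sum of 237 to 257 TPM in WT and 337 to 401 in Riok2hKO was mostly Il2ra. The part of these markers in the results below was not tested.

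The chains particular to IL-23, IL-12 and IL-6 rose, while the shared chains and the chain particular to IL-27 did not pass the test. Il23r rose most, followed by Il12rb2 and Il6ra, and in each of the 3 every Riok2hKO library was above every WT library. Il12rb1 and Il6st, which complete the IL-23, IL-12 and IL-6 receptors, and Il27ra had overlapping groups. Of the 8 chains, 6 passed the filter of at least 1 TPM in at least 5 libraries. Of these 6, 3 rose at a limma adjusted p under 0.05 and 0 fell, where 9.58% of the 10332 genes tested rose and 7.55% fell. Groups did not overlap in 3 of the 6, against 14.6% of all genes tested. The median log2 fold change was 0.44 over the 6 chains and -0.006 over all genes tested. The genes were chosen with these results known, so this set of counts is a description.

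**Figure D1:**
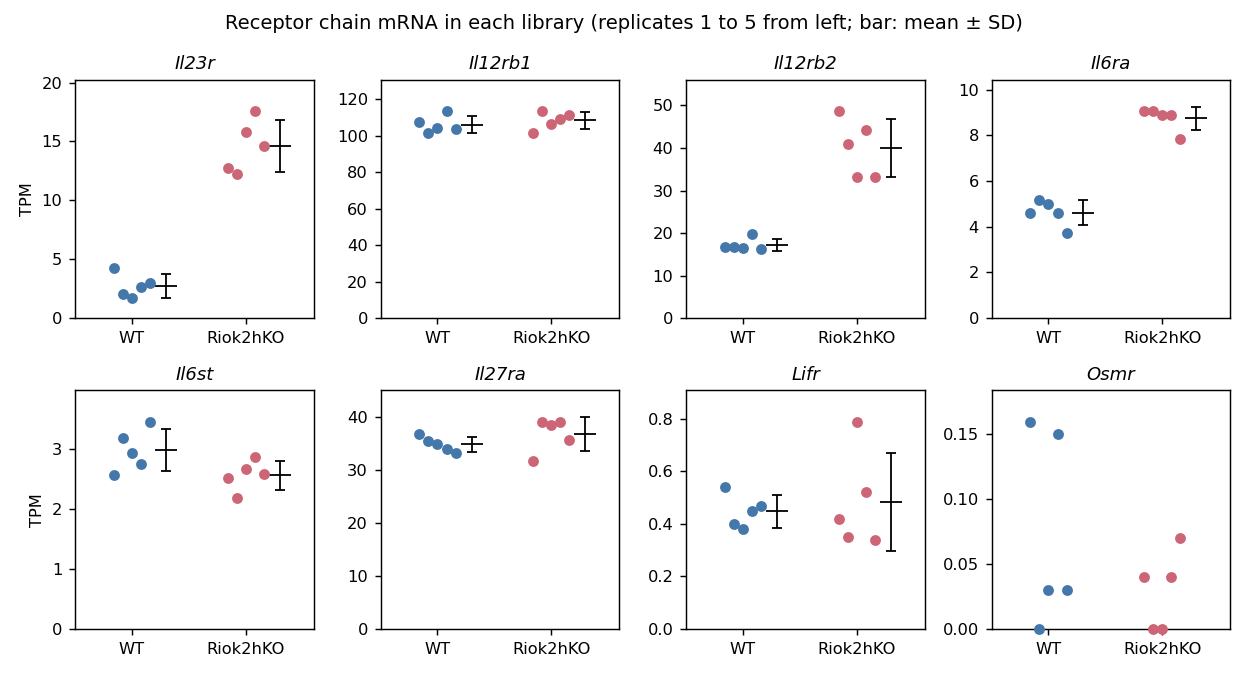
TPM of each of the 8 receptor chains in each library, WT in blue and Riok2hKO in red, with replicates 1 to 5 from left to right and a bar for the mean ± SD (left out for Osmr, which is listed at 0 in 3 libraries). Il23r, Il12rb2 and Il6ra show no overlap between groups, and the other chains overlap.

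Il23r (mm10 chromosome 6, 67422932 to 67491855) encodes the chain that gives the IL-23 receptor its specificity. It measured 4.29, 2.07, 1.72, 2.65 and 3.03 TPM in WT replicates 1 to 5 and 12.8, 12.2, 15.8, 17.6 and 14.6 TPM in Riok2hKO. The lowest Riok2hKO value was far above the highest WT value, which was in WT replicate 1. On the log2(TPM + 1) scale the fold change was 2.08 (SE 0.160, 95% interval 1.73 to 2.43, limma adjusted p = 8.87e-06), the 5th largest increase among 10332 genes. As a ratio of mean TPM the rise was 5.30-fold (95% interval 3.41 to 8.26). The log2 values include a pseudocount of 1 TPM, which compresses a gene this low in WT, and with 0.1 TPM the log2 fold change was 2.42. With any 1 library left out the ratio of means was 4.85 to 6.17, highest without WT replicate 1 (log2 fold change 2.22, adjusted p = 7.83e-07). In these bulk libraries a higher share of cells with a transcript and more transcript per cell cannot be told apart.

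Il12rb2 (chromosome 6, 67285986 to 67376293) encodes the IL-12-specific chain, which carries the docking site for STAT4. It measured 16.7, 16.7, 16.4, 19.7 and 16.2 TPM in WT and 48.7, 41.0, 33.2, 44.2 and 33.3 in Riok2hKO. Riok2hKO replicates 3 and 5 were the lowest of their group and still above WT replicate 4, the highest of WT. Its log2 fold change was 1.17 (SE 0.102, 95% interval 0.94 to 1.39, limma adjusted p = 2.49e-05), rank 36 from the top, and the ratio of mean TPM was 2.34 (95% interval 1.90 to 2.88). Without WT replicate 1 the log2 fold change was 1.16 (adjusted p = 3.09e-05). The SD was 1.45 TPM in WT and 6.83 in Riok2hKO, where the level was also higher. IL-12 was not among the cytokines named for the culture.

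Il6ra (chromosome 3, 89869324 to 89913196) encodes the chain that binds IL-6, a cytokine supplied in the culture. It measured 4.58, 5.17, 4.99, 4.61 and 3.74 TPM in WT and 9.07, 9.06, 8.89, 8.87 and 7.86 in Riok2hKO. The lowest library of each group was its replicate 5, and no values overlapped. The change was 0.80 on the log2 scale (SE 0.0774, 95% interval 0.63 to 0.97, limma adjusted p = 5.13e-05), rank 107 from the top, and the ratio of mean TPM was 1.90 (95% interval 1.64 to 2.19). Without WT replicate 1 the log2 fold change was 0.80 (adjusted p = 8.62e-05). The deposited values are per gene, so membrane-bound and soluble forms of the receptor are not separated.

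Il12rb1 (chromosome 8, 70808360 to 70823542), the chain common to the IL-12 and IL-23 receptors, was the most abundant of the 8. It measured 107, 101, 104, 114 and 104 TPM in WT and 102, 113, 107, 109 and 111 TPM in Riok2hKO. The groups covered nearly the same range. Its log2 fold change was 0.03 (95% interval -0.06 to 0.12, limma adjusted p = 0.647). That interval lies below the whole intervals of Il23r and Il12rb2, its partner chains.

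Il6st (chromosome 13, 112464070 to 112506860) encodes gp130, the signal-transducing partner of IL-6R alpha. It measured 2.57, 3.18, 2.93, 2.75 and 3.46 TPM in WT and 2.51, 2.19, 2.66, 2.87 and 2.58 in Riok2hKO. The mean was lower in Riok2hKO and the groups overlapped. The log2 fold change was -0.16 (95% interval -0.34 to 0.02, limma adjusted p = 0.221).

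Il27ra (chromosome 8, 84030286 to 84042600) encodes the IL-27-specific chain, which also signals with gp130. It measured 36.9, 35.5, 34.8, 33.9 and 33.2 TPM in WT and 31.7, 39.0, 38.5, 39.1 and 35.6 in Riok2hKO. Riok2hKO replicate 1 was the lowest library of all 10. Its change on the log2 scale was 0.07 (95% interval -0.06 to 0.20, limma adjusted p = 0.442), and 0.12 without that library (adjusted p = 0.102). Its RefSeq span overlaps that of Palm3, itself under 1 TPM, by 386 bases, and the libraries do not mark strand.

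Lifr and Osmr, the partners of gp130 in the receptors for LIF and oncostatin M, lie beside each other on chromosome 15 and did not reach 1 TPM in any library, so they were not tested. Lifr measured 0.54, 0.40, 0.38, 0.45 and 0.47 TPM in WT and 0.42, 0.35, 0.79, 0.52 and 0.34 in Riok2hKO, with overlapping groups. Osmr was listed at 0 in WT replicate 2 and in Riok2hKO replicates 2 and 3, and was highest in WT replicate 1, at 0.16 TPM.

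**Figure D2:**
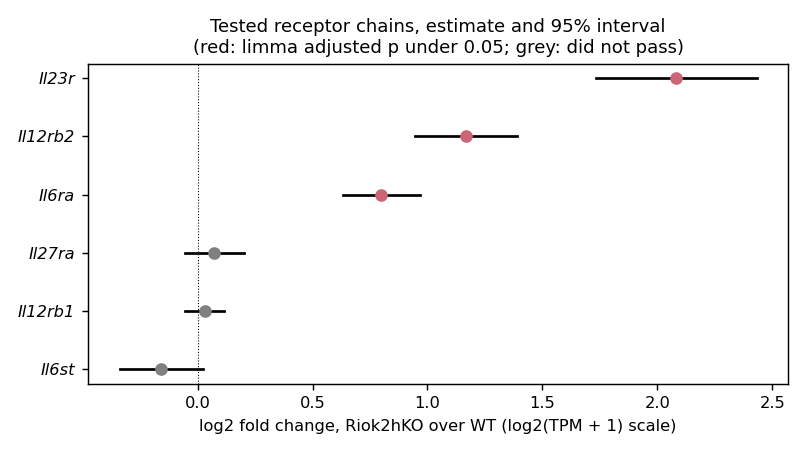
Log2 fold change of each tested receptor chain, Riok2hKO over WT, on the log2(TPM + 1) scale with its 95% interval. Il23r, Il12rb2 and Il6ra lie to the right of 0, and the intervals of Il27ra, Il12rb1 and Il6st include 0.

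The order of the levels differed between the genotypes. In WT the order of mean TPM was Il12rb1 (106), Il27ra (34.85), Il12rb2 (17.15), Il6ra (4.62), Il6st (2.98), Il23r (2.75), Lifr (0.448) and Osmr. The ranges of Il6st and Il23r overlapped in WT, and no other neighbours in that order did. In Riok2hKO the order was Il12rb1 (108), Il12rb2 (40.1), Il27ra (36.8), Il23r (14.6), Il6ra (8.75), Il6st (2.56), Lifr (0.484) and Osmr. Here Il12rb2 and Il27ra overlapped, and no other neighbours did. Il23r thus stood below Il6ra in all WT libraries and above it in all Riok2hKO libraries.

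The 8 chains summed to 169 ± 6.21 TPM in WT and 212 ± 7.77 TPM in Riok2hKO (mean ± SD, n = 5). Of that sum Il12rb1 made up 62.8% ± 0.910 in WT and 51.2% ± 2.13 in Riok2hKO. The share of Il12rb2 was 10.1% ± 0.554 and 18.9% ± 3.07, and that of Il23r was 1.62% ± 0.564 and 6.89% ± 0.966. The share of Il27ra was 20.6% ± 1.01 in WT and 17.4% ± 1.25 in Riok2hKO.

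Ratios between 2 chains of the same library do not depend on how libraries are scaled. The ratio of Il23r to its partner Il12rb1 was 0.0400, 0.0204, 0.0165, 0.0233 and 0.0292 in WT and 0.126, 0.108, 0.148, 0.161 and 0.131 in Riok2hKO. The groups did not overlap, and Il12rb1 transcripts outnumbered those of Il23r in every library. The ratio of Il12rb2 to Il12rb1 was 0.161 ± 0.00755 in WT and 0.371 ± 0.0734 in Riok2hKO (mean ± SD, n = 5), also with no overlap.

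The 2 ligand-specific partners of Il12rb1 did not keep their proportion. There were 3.90, 8.04, 9.56, 7.44 and 5.34 Il12rb2 transcripts for each Il23r transcript in WT and 3.81, 3.35, 2.11, 2.51 and 2.28 in Riok2hKO. WT replicate 1, with the highest Il23r of its group, came very near to Riok2hKO replicate 1, so the groups were only just apart. The ratio of Il6ra to Il6st was 1.57 ± 0.281 in WT and 3.45 ± 0.448 in Riok2hKO, and every Riok2hKO library was above every WT library. None of the 4 ratios was given a test.

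**Figure D3:**
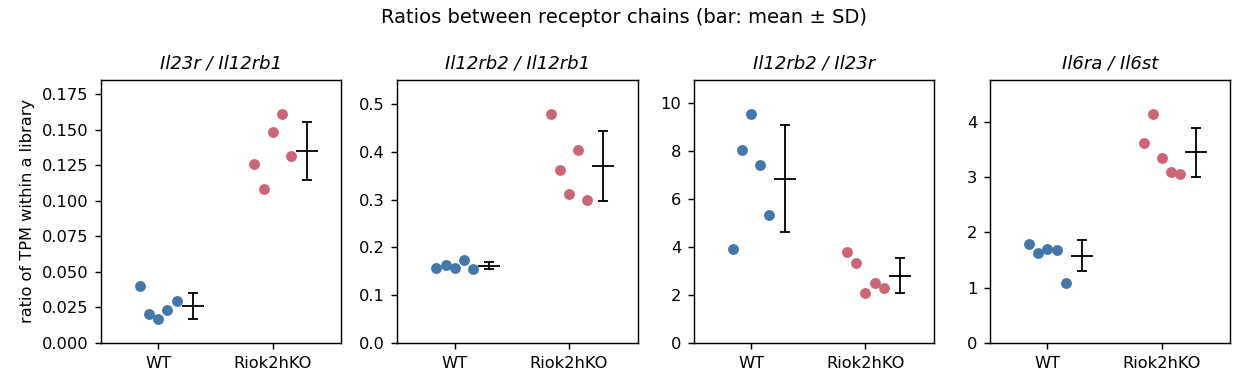
Ratio of TPM between 2 receptor chains within each library, WT in blue and Riok2hKO in red, with replicates 1 to 5 from left to right and a bar for the mean ± SD. Il23r and Il12rb2 are higher relative to Il12rb1 in Riok2hKO, Il12rb2 is lower relative to Il23r, and Il6ra is higher relative to Il6st.

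Il23r and Il12rb2, the chains with the largest increases, are next to each other on chromosome 6 and are read from the same strand. Their annotated spans are 46.6 kb apart, and their transcription starts are 115.7 kb apart. On the side of Il12rb2 the nearest gene of the table did not pass the test. Serbp1, which encodes an mRNA-binding protein, measured 172, 212, 211, 211 and 212 TPM in WT and 213, 221, 221, 214 and 217 in Riok2hKO (log2 fold change 0.10, limma adjusted p = 0.229). The groups did not overlap, but 4 WT libraries lay just under the lowest Riok2hKO library and WT replicate 1 stood apart below. When a fit took account of how many genes each library detected, Serbp1 was called (log2 fold change 0.15, adjusted p = 0.0164). The RefSeq span of Il12rb2 overlaps that of Serbp1 by 3317 bases, so without strand reads of that stretch cannot be told apart. Around all 8 chains, 16 of the 36 nearest other genes were tested, of which 4 rose and 1 fell. The shares over all genes tested were 9.58% and 7.55%, and the counts were not tested against them. Beside Il6ra, Atp8b2 rose from 1.13 ± 0.136 to 1.65 ± 0.139 TPM (limma adjusted p = 0.0203, a call lost without WT replicate 1, at 0.0538, or without Riok2hKO replicate 2) and Hax1 fell from 248 to 226 TPM (adjusted p = 0.00381).

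The upstream sequences of Il23r and Il12rb2 are shown because these neighbours rose together and respond to different polarizing signals. Both are RefSeq sequences of GRCm38.p6, the mm10 assembly, minus strand, 5′ to 3′. They cover chr6:67491856-67492105, the 250 bases before the Il23r start, and chr6:67376294-67376438, the 145 bases upstream of Il12rb2 that lie outside its annotated span. Capitals mark matches, on either strand, to motifs of factors known to act in Th17 and Th22 cells: TTCNNNGAA (STAT) and its form with a spacer of 4 bases, AGGTCA (the half-site bound by ROR factors), TGANTCA (AP-1) and GCGTG (the core bound by the aryl hydrocarbon receptor).
Il23r: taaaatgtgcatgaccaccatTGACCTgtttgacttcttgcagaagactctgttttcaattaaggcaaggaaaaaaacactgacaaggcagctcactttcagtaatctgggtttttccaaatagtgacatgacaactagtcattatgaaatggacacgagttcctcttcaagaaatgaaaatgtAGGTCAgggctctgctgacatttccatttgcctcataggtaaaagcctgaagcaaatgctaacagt
Il12rb2: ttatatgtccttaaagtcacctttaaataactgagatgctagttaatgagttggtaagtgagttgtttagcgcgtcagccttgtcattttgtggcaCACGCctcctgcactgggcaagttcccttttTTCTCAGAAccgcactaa

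The Il23r window held 2 matches to the ROR half-site and none to the other motifs. Of 32851 mouse promoter windows of the same length, 14% held at least 1 such half-site, and the share with 2 was not counted. The Il12rb2 window held 1 match to TTCNNNGAA, present in 4.24% of windows of that length, and 1 to GCGTG, present in 15.9%. The 250-base windows of Il6ra and Il6st held none of the 5 motifs. GC content was 39.6% for Il23r, 42.8% for Il12rb2, 65.2% for Il6ra and 66.0% for Il6st. A match is a run of letters and not evidence of binding. Ahr, the gene of the aryl hydrocarbon receptor, averaged 0.414 TPM in WT and 0.642 TPM in Riok2hKO, reached 1 TPM in 0 libraries and was not tested. Of the 8 chains, 6 had a sequence in the promoter table.

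The genes whose profile over the 10 libraries lay nearest to that of Il23r were Gp49a, Plac8 and Lilrb4, at mean absolute differences of 0.243, 0.285 and 0.295 on the log2 scale after subtraction of each gene's WT mean. Gp49a and Lilrb4 are near-identical neighbours that share reads, so they count as little more than 1 gene here. Nearest to Il12rb2 were Gatm, Lif and Casp6, at 0.108, 0.124 and 0.158. These came from 7458 candidates averaging 5 TPM or more, predicted genes left out, and since both targets rose, genes that rose by a like amount come first.

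Among the ligands of these receptors, Lif rose and Il23a fell. Of 14 ligand genes 7 were tested, 1 rose, 1 fell and 5 did not pass, with a median log2 fold change of 0.0017. For comparison, 9.58% of all genes tested rose and 7.55% fell. Il23a encodes p19, the subunit particular to IL-23, and it fell where Il23r rose. It measured 2.63, 4.28, 7.46, 3.78 and 3.57 TPM in WT and 0.08, 0.66, 1.04, 1.63 and 0.56 in Riok2hKO. Every Riok2hKO library was below every WT library. Its log2 fold change was -1.58 (SE 0.246, limma adjusted p = 0.00139), the 2nd largest decrease among 10332 genes on that scale. The pseudocount of 1 TPM compresses this change too. With 0.1 TPM it was -2.56, and mean TPM in Riok2hKO was 0.183 times that in WT (95% interval 0.0737 to 0.453). Il23a passed the filter on low values through the 5 WT libraries, where it was high. With a filter at a mean of 5 TPM, which Il23a does not reach, 0 ligand genes fell. Il12b, which encodes the p40 subunit that completes both IL-23 and IL-12, had a mean under 1 TPM, as did Il12a and Il27.

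Lif, the ligand of the LIF receptor, measured 23.2, 23.2, 23.1, 30.8 and 25.3 TPM in WT and 66.2, 55.0, 59.9, 57.6 and 55.9 in Riok2hKO (log2 fold change 1.203, limma adjusted p = 3.17e-06), while Lifr was under 1 TPM in all 10 libraries. Osm, which encodes oncostatin M, averaged 34.7 TPM in WT and 34.6 TPM in Riok2hKO, while Osmr was near or at 0 (limma adjusted p = 0.991 for Osm). Ebi3, which encodes a subunit of IL-27, measured 52.3 and 50.8 TPM (adjusted p = 0.685). Il6 measured 2.06 and 3.03 TPM (adjusted p = 0.355). Of 6 other chains of the family 2 were tested, Il11ra1 (2.68 and 1.95 TPM, adjusted p = 0.145) and Lepr (2.07 and 2.21, adjusted p = 0.69), and neither passed.

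**Figure D4:**
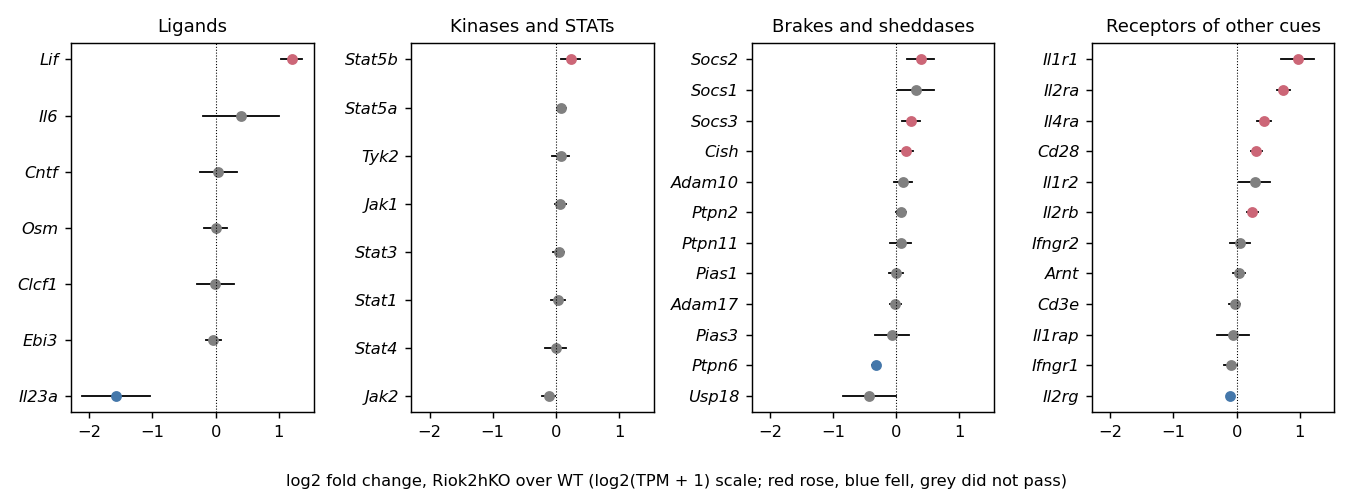
Log2 fold changes with 95% intervals, Riok2hKO over WT on the log2(TPM + 1) scale, of the tested genes in 4 lists: ligands, kinases and STATs, brakes and shedding enzymes, and receptors of other culture cues. Lif and Il23a stand farthest from 0, in opposite directions, and the kinases and STATs lie close to 0.

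Downstream of the receptors, 1 of 8 kinase and STAT genes rose and 0 fell, with a median log2 fold change of 0.06. That is near the share over all genes tested, of which 9.58% rose and 7.55% fell. Stat3 measured 103 and 106 TPM in WT and Riok2hKO (adjusted p = 0.512) and Stat4 39.4 and 39.4 TPM (adjusted p = 0.962). Intervals of the log2 fold change were -0.04 to 0.13 for Stat3 and -0.17 to 0.15 for Stat4, below the whole intervals of the 3 chains that rose. The 1 called was Stat5b (36.9 to 43.5 TPM, log2 fold change 0.24, adjusted p = 0.0343). It was not called without WT replicate 5 or Riok2hKO replicate 1, 2, 3 or 4 (highest adjusted p = 0.0868), nor with quantile scaling. Jak2 measured 38.7 TPM in WT and 35.8 in Riok2hKO and did not pass (log2 fold change -0.11, limma adjusted p = 0.124). It was called as fallen with quantile scaling and without Riok2hKO replicate 5 (lowest adjusted p = 0.0361).

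Of 12 genes for brakes on these pathways and for enzymes that shed the receptors, 3 rose, 1 fell and 8 did not pass (median 0.07). Over all genes tested the shares were 9.58% that rose and 7.55% that fell. The suppressor of cytokine signalling genes Socs2, Socs3, whose product binds gp130, and Cish rose by 0.38, 0.23 and 0.16 on the log2 scale (limma adjusted p = 0.0218, 0.0359 and 0.0379). These calls were fragile. Socs2 lost its call without WT replicate 5 or Riok2hKO replicate 4. Socs3 lost it without any 1 of 7 libraries, WT replicate 1, 2 or 5 or Riok2hKO replicate 1, 2, 3 or 4. Cish lost it without any 1 of 8 libraries, all but WT replicate 4 and Riok2hKO replicate 1. Ptpn6, which encodes the phosphatase SHP-1, measured 314, 311, 325, 306 and 309 TPM in WT and 250, 253, 243, 240 and 260 TPM in Riok2hKO, with no overlap (log2 fold change -0.33, adjusted p = 2.35e-05). The sheddase genes Adam10 and Adam17 did not pass (adjusted p = 0.299 and 0.852).

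Among receptors and sensors for other cues of the culture, 5 of 12 tested rose and 1 fell (median 0.15). Over the whole set of genes tested, 9.58% rose and 7.55% fell. Il1r1, the receptor for the added IL-1 beta, measured 0.86, 1.03, 0.56, 0.57 and 0.89 TPM in WT and 2.42, 2.15, 2.2, 3.55 and 2.16 in Riok2hKO (log2 fold change 0.97, adjusted p = 0.000349), again with no overlap. With a pseudocount of 0.1 TPM the log2 fold change was 1.56, and the ratio of mean TPM was 3.19 (95% interval 2.20 to 4.62). Only 1 WT library reached 1 TPM, so Il1r1 passed the filter through the Riok2hKO libraries, where it was high. It is counted in this list and in the Th17 and Th22 list. With a filter at a mean of 5 TPM, which Il1r1 does not reach, 4 and 11 genes of those lists rose. Il1rap, the partner of Il1r1, did not pass (4.46 and 4.20 TPM, adjusted p = 0.793). The IL-2 receptor alpha chain gene Il2ra rose by 0.74 and the beta chain gene Il2rb by 0.25 on the log2 scale, while Il2rg, the chain shared with other cytokine receptors, fell by 0.11. With no mean-variance trend in the fit, Il2rg lost its call and 0 genes of this list fell. Il4ra and Cd28 were the others that rose.

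The lists below were chosen with earlier results of these data known, so their counts are a description. Of all genes tested, 9.58% rose and 7.55% fell. Th17 and Th22 genes that IL-6 and IL-23 signalling is known to engage made up a list. Of 13 tested there, 12 rose, 0 fell and Batf did not pass (median 0.53). The members with the smallest p were Il22, Il17f, Il21 and Il24, and Il22 was also the gene on whose reporter the cells were sorted; its TPM is uncertain because it shares reads with the near-identical Iltifb. In a list of Th1 genes downstream of IL-12, 3 of 8 tested rose, with Il18r1 and Cxcr3 among them (median 0.10). Another 2 fell (Fasl and Gzmb) and 3 did not pass. These 3 were Tbx21 (18.7 TPM in WT and 17.4 in Riok2hKO, limma adjusted p = 0.355), Ifng (2.12 and 2.46, adjusted p = 0.975) and Il18rap (adjusted p = 0.101). In a list of naive T cell genes 5 of 8 tested rose (Lef1, Il7r, S1pr1 and Satb1 among them) and 2 fell (Ccr7 and Tcf7; median 0.33). The number that fell was 1 without Riok2hKO replicate 3, 4 or 5.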

How the data were processed

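RNA from 10 libraries of sorted IL-22+ CD4+ T cells was read after SMART-seq2, which does not mark strand. The authors aligned to the mm10 transcriptome with Bowtie (version not given in the sources used) and estimated the deposited TPM values with RSEM, per the labels' protocols. Version 1.2.8 of RSEM comes from the submitters' processing notes. TPM sums to 1000000 per library, so depth is unknown. Reads shared by several genes are divided by estimation.

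Of 23420 rows, 27 with a date in place of a symbol were left out (0.107% to 0.114% of TPM). Columns were assigned by name, and 0 library pairs held identical values. Whether each library had its own mouse or culture is not stated, so the spread behind p-values may be technical. The filter kept genes reaching 1 TPM in 5 or more libraries (4 where 1 was left out). limma 3.58.1 (R 4.3.3) was run on log2(TPM + 1) (genotype term, mean-variance trend, Benjamini-Hochberg adjustment over all 10332 genes). The test was checked on simulated data. Rose, fell and called mean adjusted p under 0.05. Intervals of ratios of mean TPM use the delta method with Welch's degrees of freedom.

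Named genes were the 8 chains, Riok2, up to 4 members per list with the smallest p, the 3 nearest profiles to Il23r and Il12rb2, and the 3 nearest genes on each side of a chain. Others were named after their values were seen: Osm, Adam10, Adam17, Il1rap, Il2rb, Il2rg, Stat3, Stat4, Batf, Cxcr3, Tbx21, Ifng, Il18rap, Ccr7, Tcf7, Il12a, Il12b, Il27 and the cell markers. The chains and lists were chosen with earlier results of these data known. Positions are from RefSeq (GRCm38.p6), to which 23178 symbols were matched. Other steps and figures used Python 3.11.15 and matplotlib 3.10.9. Some genes of the lists and neighbourhoods are not reported here by name.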

Additional observations from a re-analysis of the deposited data

Results flagged for a closer look

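In 104 groups of 5 libraries examined (the chains, their ratios and the other named genes), 7 held a library far from the other 4, where chance flags about 1 group in 20. Among the chains, WT replicate 4 was high in Il12rb2 (19.7 TPM, where the rest of WT spanned 16.2 to 16.7) and Il6ra was low in Riok2hKO replicate 5 (7.86 TPM against 8.87 to 9.07). The ratio of Il6ra to Il6st was low in WT replicate 5 (1.08 against 1.63 to 1.78). Both of the chains stayed on their side of the gap between groups. WT replicate 4 was also the high library for Lif (30.8 TPM against 23.1 to 25.3) and for Il7r (8.57 TPM against 6.15 to 6.77). Il1r1 was high in Riok2hKO replicate 4 (3.55 TPM against 2.15 to 2.42). Serbp1, beside Il12rb2, was low in WT replicate 1 (172 TPM against 211 to 212).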

How the results depend on the processing

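Of the 6 chains tested, Il23r, Il12rb2 and Il6ra rose and the others did not pass in each of 20 alternatives (19 for Il6st, which a filter at a mean of 5 TPM removes). These covered pseudocounts of 0.1 and 0.5, other filters, median-of-ratios and quantile scaling, array weights, no variance trend, detected genes as a covariate, a replicate block and each library left out in turn. The log2 fold change was 1.98 to 2.42 for Il23r (highest adjusted p = 0.000288), 1.09 to 1.23 for Il12rb2 (0.000231) and 0.74 to 0.91 for Il6ra (0.000399). Over all genes, 680 to 1106 rose and 532 to 951 fell; quantile scaling turned the balance (843 rose, 951 fell). Same-numbered libraries showed little shared deviation, with r from -0.0341 to 0.0679 across 10332 genes, which are not independent. Of 5 WT libraries 1 was best matched by its own number. No pairing by number was seen, but a weak one could be missed by this check, and the labels do not state any. With the replicate block 1444 genes changed (880 rose, 564 fell), 3 chains rose and 0 fell. Of 794 values for 40 other named genes, 35 lost and 4 gained a call and 0 reversed; under the block Il11ra1 gained a call (adjusted p = 0.0401), and Socs3, Cish and Atp8b2 were not called. Stat5b, Socs2, Socs3 and Cish also lost theirs with no filter on low values, and Stat5b, Socs3 and Cish with no variance trend, where 1 naive T cell gene fell in place of 2. The causes were not tested. Lifr and Osmr are too low for a test without a filter to be read.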
